A study of Mus musculus with 12 samples.

Results

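The 69 genes described here encode heat shock proteins and the cochaperones that work with them, measured as RNA in bone marrow-derived macrophages. They were chosen by gene name, out of 13232 genes in the table: the HSP70, HSP110, HSP90, HSP60, HSP10 and small heat shock protein genes, the DNAJA, DNAJB and DNAJC genes, *Bag1* to *Bag6*, and the transcription factors *Hsf1* and *Hsf2*. By textbook location 36 act in the cytosol or nucleus, 13 in or on the endoplasmic reticulum (ER), 9 in the mitochondrion and 2 on vesicles or endosomes. A further 4 were not assigned to a compartment, and 5 are pseudogenes or retrocopies. Other genes of these families, among them *Hspb1*, *Hspb8*, *Hspa1l* and *Dnaja4*, were not analysed here.

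The cells came from wild-type C57B6/J mice on a normal diet (abbreviated ND) or on a high-fat diet (HFD), and were grown from whole marrow in 20 ng/ml of M-CSF, the growth factor that drives macrophage differentiation. All 6 libraries used here, 3 ND and 3 HFD, come from cultures moved to serum-free medium on day 4 and kept for 1 h at 1% oxygen on day 7, so the diet of the mouse is the labelled difference. The sources used here give no age, sex or length of feeding, and do not say that the replicates are separate mice, so p-values measure only the spread between these libraries. The 6 libraries of normal-oxygen cultures were not analysed here, and no response to hypoxia can be given.

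HSP70 proteins bind unfolded stretches of other proteins and release them in a cycle driven by ATP. DNAJ proteins bring clients to HSP70 and speed its ATP hydrolysis, while BAG proteins and the HSP110 protein *Hsph1* act on nucleotide release and so on client release. HSP90 takes over clients at later stages, and the HSP60 and HSP10 proteins form a folding chamber in the mitochondrial matrix. In the cytosol the stress-induced part of this system is switched on by HSF1 at heat shock elements. The ER part is switched on by the unfolded protein response, through elements bound by ATF6 with NF-Y.

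Those elements can be read in the promoters of the members, 5 of which are shown because they hold the elements just named or belong to *Dnajb4*. RefSeq promoters (GRCm38.p6, 250 bases before to 50 bases after a start) were matched for 51 of the 69 members. The heat shock element was searched as 3 units in a row, GAA, TTC and GAA or TTC, GAA and TTC, with 2 bases of any kind (NN) between units. The ER stress element was searched as CCAAT, 9 bases of any kind and CCACG, on both strands. Capitals mark the matches, and in *Dnajb4* they mark a shorter match of only 2 units, TTC and GAA. This shorter form, in either order, is contained in every full element and was searched after the data had been seen.
Hsph1, chr5:149636266-149636565, minus strand: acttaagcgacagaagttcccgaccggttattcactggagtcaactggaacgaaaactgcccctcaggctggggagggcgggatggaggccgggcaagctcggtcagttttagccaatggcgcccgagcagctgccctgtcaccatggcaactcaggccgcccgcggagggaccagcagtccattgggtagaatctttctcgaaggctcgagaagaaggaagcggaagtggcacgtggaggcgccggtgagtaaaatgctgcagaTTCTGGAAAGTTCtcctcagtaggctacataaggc
Hspe1, chr1:55087898-55088197, plus strand: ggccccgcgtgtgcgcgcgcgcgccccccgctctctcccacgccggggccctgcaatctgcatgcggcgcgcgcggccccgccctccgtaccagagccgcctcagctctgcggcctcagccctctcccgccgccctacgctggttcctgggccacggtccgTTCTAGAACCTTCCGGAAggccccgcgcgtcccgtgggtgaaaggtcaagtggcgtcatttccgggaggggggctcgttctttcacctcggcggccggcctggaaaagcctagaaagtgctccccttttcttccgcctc
Dnajb4, chr3:152193796-152194095, minus strand: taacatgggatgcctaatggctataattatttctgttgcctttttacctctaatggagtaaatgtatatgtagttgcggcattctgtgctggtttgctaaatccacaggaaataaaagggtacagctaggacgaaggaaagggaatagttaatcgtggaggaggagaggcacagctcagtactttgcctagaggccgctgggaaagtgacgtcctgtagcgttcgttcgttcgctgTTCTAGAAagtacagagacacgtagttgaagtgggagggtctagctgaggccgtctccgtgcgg
Hspa5, chr2:34771840-34772139, plus strand: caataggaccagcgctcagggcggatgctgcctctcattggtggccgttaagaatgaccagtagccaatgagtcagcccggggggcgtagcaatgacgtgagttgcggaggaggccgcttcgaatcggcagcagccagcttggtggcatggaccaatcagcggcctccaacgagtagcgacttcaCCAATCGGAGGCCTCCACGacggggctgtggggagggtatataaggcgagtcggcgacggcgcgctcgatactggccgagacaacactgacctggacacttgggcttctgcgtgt
Hsp90b1, chr10:86705395-86705694, minus strand: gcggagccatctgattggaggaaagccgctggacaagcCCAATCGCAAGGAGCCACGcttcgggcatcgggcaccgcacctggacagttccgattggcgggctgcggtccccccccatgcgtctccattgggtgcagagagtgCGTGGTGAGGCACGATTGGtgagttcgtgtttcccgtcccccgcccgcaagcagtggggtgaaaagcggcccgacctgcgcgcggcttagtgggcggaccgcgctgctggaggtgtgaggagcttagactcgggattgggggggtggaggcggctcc

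The full heat shock element was found in 4 of the 51 members with a promoter (7.84%), against 0.599% of the 9021 genes of the table that have one. These 4 were *Hsph1*, *Hspd1*, *Hspe1* and *Dnajb6*. *Hspd1* and *Hspe1*, the HSP60 and HSP10 genes, lie head to head and read the same element from opposite strands. No full element was found for *Hspa1a*, *Hspa1b*, *Dnajb1* or *Bag3*, and no promoter was matched for *Hspa8*, *Hsp90aa1* or *Hsp90ab1*. The search took only exact matches in a short window, so a miss does not show that a gene lacks an element. The ER stress element was found in 3 members, *Hspa5*, *Hsp90b1* and *Dnajc3*, all of the ER group, or 5.88% against 0.144% of the same 9021 genes. *Dnajb4* has 2 listed starts. Neither window holds the full heat shock element, and the window printed holds the 2-unit match TTCTAGAA 14 bases before its start. Such short matches are common, present in 12 of the 51 members (23.5%) and in 14.2% of the 9021 genes. A match describes the letters only and is not a measured binding site.

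Each library held an estimated 19045000 to 24492000 reads. ND replicate 3 stands apart from the other libraries: without it 233 of the 13232 genes passed a limma adjusted p of 0.05 (1.76%), against 0 with all 6 libraries. Values without it are given beside several of the results below. All 12 macrophage markers were present, with a summed signal of 387355 to 439030 in ND and 384808 to 445784 in HFD. Of other cell types, 6 of 10 neutrophil markers (summed signal 1712 to 2455 in ND and 2109 to 3430 in HFD) and 3 of 6 stromal markers (177 to 549 and 51.8 to 337) had values. All 6 neutrophil markers had positive differences, 1 at an unadjusted p under 0.05, and all 3 stromal markers negative ones, 1 at an unadjusted p under 0.05. The B cell, T cell and mast cell lists had 1 of 6 genes each, and all 3 were lower in HFD at an unadjusted p under 0.05. *Ighm* ran from 1889 to 3061 in ND and 1876 to 2075 in HFD, *Cd4* from 202 to 356 and 98.1 to 230, and *Kit* from 117 to 226 and 72.4 to 104. Of the remaining lists, the dendritic (0 of 6), erythroid (0 of 7) and adipocyte (0 of 4) lists had none. The 5 proliferation markers summed to 8715 to 9628 in ND and 7394 to 10475 in HFD, all 5 with negative differences and 2 at an unadjusted p under 0.05. The part of these cells in the results below was not tested, and in bulk RNA fewer cells of a type and less RNA per cell cannot be told apart.

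In the number of genes with a low p or without overlap, the heat shock and DNAJ genes stayed close to the whole table. Their directions leaned towards higher values in HFD, and this lean was not tested. None of the 69 reached the threshold of 0.05 for limma's adjusted p, corrected over all 13232 genes by the Benjamini-Hochberg method, and the background was 0% of all genes. At an unadjusted p under 0.05 there were 7 members, 6 higher and 1 lower in HFD. That is 10.1% of the members against 10.6% of all genes. By direction, 8.70% of the members were higher and 1.45% lower, against 5.4% and 5.18% of all genes. For 10 members (14.5%) the HFD values lay wholly above or below the ND values, and the share over all genes was also 14.5%. Of these 10 members 8 lay above, against 7.44% of all genes, and 2 below, against 7.07%. The median log2 difference, HFD minus ND on the log2(signal + 1) scale used throughout, was 0.046 over the members and -0.0034 over all genes, and 45 of the 69 members (65.2%) had a positive difference against 48.9% of all genes. Without HFD replicate 2 the median of the members was 0.027.

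The number past the adjusted threshold depended on how the libraries were weighted. With array weights, which give less weight to a library that departs from its group, 5 members passed, among them *Bag3*, *Dnaja3*, *Dnajb4* and *Hsph1*, or 7.25% against a background of 8.56%. With the replicate number as a block only *Dnajb4* passed, against a background of 0.234%, although the numbers were not found to pair the libraries. Without HFD replicate 1 no member passed, and 0.0151% of all genes did.

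The count at an unadjusted p under 0.05 moved with the background of the same fit. Without ND replicate 3 there were 12 members (17.4%, background 17.5%), and with array weights 15 (21.7%, background 27.6%). Leaving out ND replicate 1 gave 3 members (4.35%, background 5.29%), ND replicate 2 gave 4 (5.80%, background 8.01%) and HFD replicate 1 gave 9 (13.0%, background 12.6%). Leaving out HFD replicate 2 (background 5.49%) or HFD replicate 3 (background 9.17%) gave 4 members (5.80%) each.

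**Figure D1:**
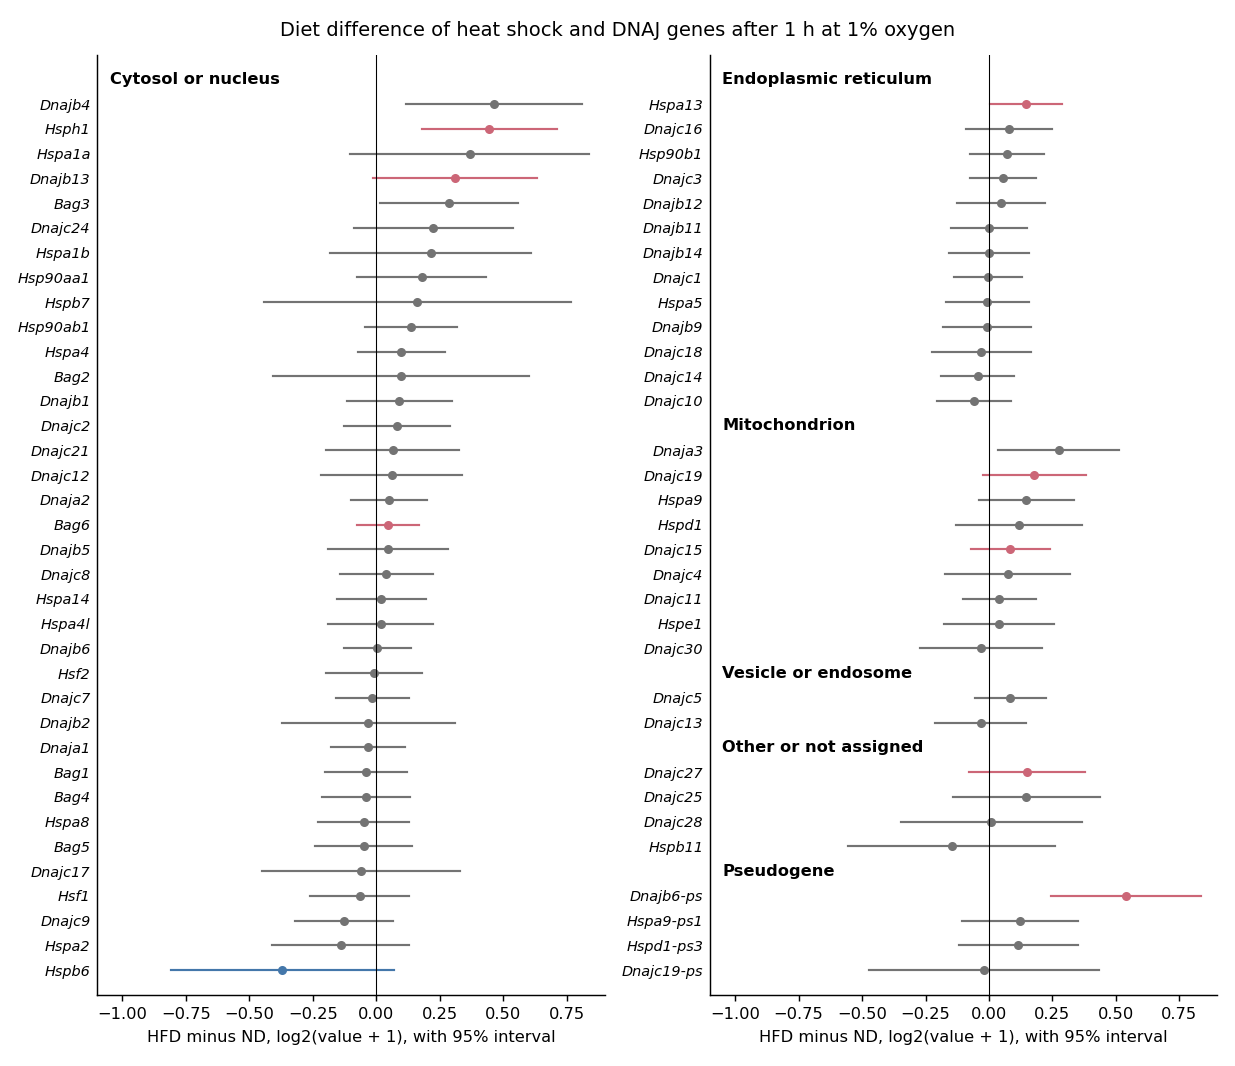
Diet difference of 68 of the 69 genes, grouped by compartment. Points are limma estimates of HFD minus ND on the log2(signal + 1) scale and lines their 95% intervals, with 3 libraries per diet. Red marks genes with every HFD value above every ND value, blue the reverse and grey an overlap. *Dnajb4* (0.47) and *Hsph1* (0.45) lead the cytosolic group, and the ER group lies between -0.060 and 0.15.

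Counts and medians were taken for each compartment. The 36 cytosolic or nuclear genes had a median log2 difference of 0.046, 23 of them with a positive difference and 3 at an unadjusted p under 0.05 (*Dnajb4*, *Hsph1* and *Bag3*). Leaving out ND replicate 1 gave these genes a median of 0.016, and leaving out HFD replicate 3 one of 0.021. The 13 ER genes had a median of 0.0010, 7 with a positive difference, and 1 (*Hspa13*) at an unadjusted p under 0.05. The 9 mitochondrial genes had a median of 0.085, 8 with a positive difference and 1 (*Dnaja3*) at an unadjusted p under 0.05. As shares, 8.33% of the cytosolic, 7.69% of the ER and 11.1% of the mitochondrial genes were at an unadjusted p under 0.05, against 10.6% of all genes. Positive differences were held by 63.9%, 53.8% and 88.9% of them, against 48.9% of all genes. The median SD between libraries of a diet, on the log2 scale, was 0.12 for the cytosolic, 0.070 for the ER and 0.12 for the mitochondrial genes, and 0.12 over all genes. Differences between compartments were not tested.

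*Dnajb4* encodes a cytosolic DNAJB protein of the same class as *Dnajb1* and had the largest positive difference of the members that are not pseudogenes, with all 6 libraries, a rank it lost without ND replicate 1 and without HFD replicate 3. The gene lies at chr3:152178511-152210302 on the minus strand (GENCODE M21, GRCm38), and none of its exonic sequence is shared with another annotated transcript over 75 bases, the read length. Its signal in replicates 1 to 3 was 928, 1096 and 1393 for ND, and 1331, 1497 and 1872 for HFD, and values below keep that order. ND replicates 1 and 2 were the lowest and HFD replicate 3 the highest, and the diets overlapped because ND replicate 3 lay above HFD replicate 1. The means were 1139 ± 236 in ND and 1567 ± 277 in HFD (mean ± SD, n = 3 per diet). The log2 difference was 0.47 (SE 0.15, 95% interval 0.12 to 0.81), with a limma adjusted p of 0.351. An exact two-sided permutation test of its log2 values gave p = 0.2, where 0.1 is the smallest possible for 3 against 3.

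Single libraries moved the value for *Dnajb4* but not its direction. Without ND replicate 3 the difference was 0.62, with a limma adjusted p of 0.0575, and it was 0.33 without ND replicate 1 and likewise without HFD replicate 3. Over the 15 alternatives run the limma adjusted p ranged from 0.0193 to 0.934. *Dnajb1*, a classical heat shock gene, had signals of 519, 456 and 451 in ND and 471, 553 and 495 in HFD. These values overlapped, with a log2 difference of 0.091 (95% interval -0.12 to 0.30, limma adjusted p 0.779). *Dnajb4* signal was thus 179% to 309% of the *Dnajb1* signal in ND and 271% to 378% in HFD, without correction for length.

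**Figure D2:**
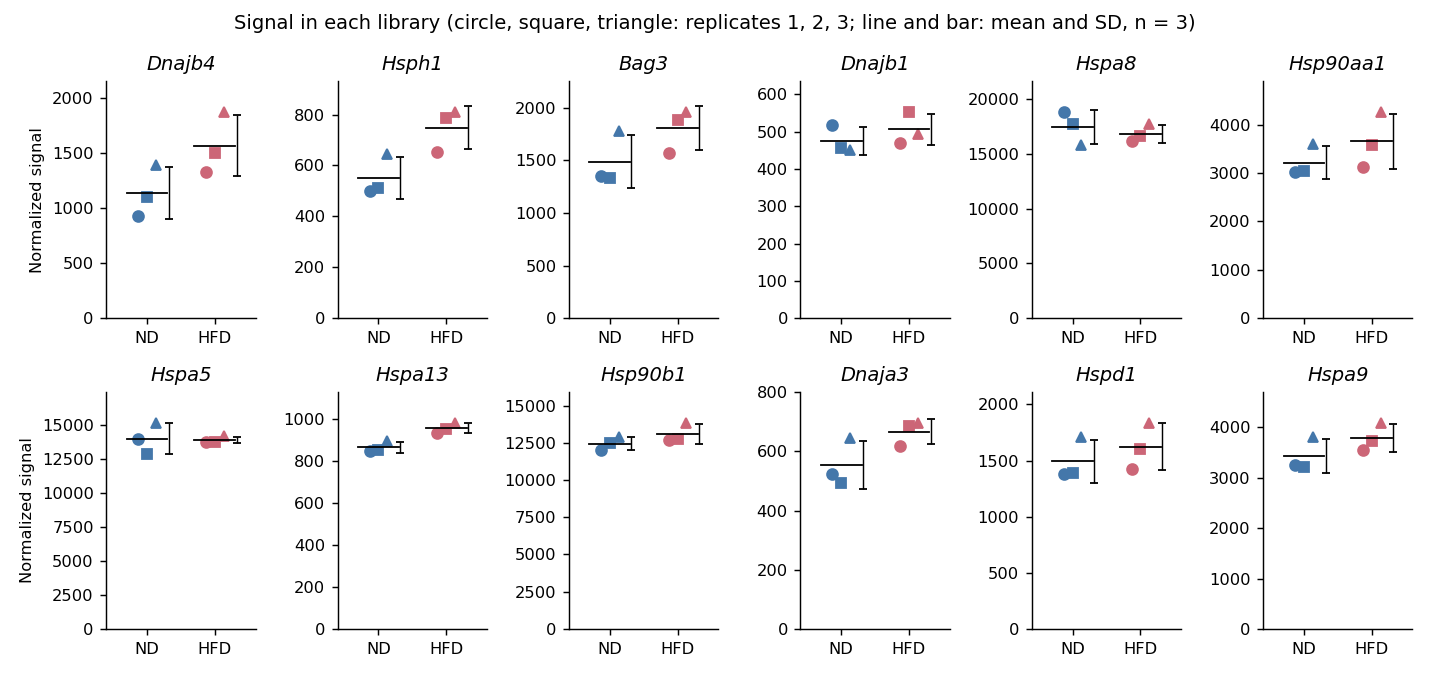
Normalized signal of 12 genes in each of the 6 libraries, ND in blue and HFD in red. The upper row holds cytosolic genes, and the lower row ER genes (*Hspa5*, *Hspa13*, *Hsp90b1*) and mitochondrial genes (*Dnaja3*, *Hspd1*, *Hspa9*). ND replicate 3 (blue triangle) is the highest ND library in each panel but *Dnajb1* and *Hspa8*, and HFD replicate 3 (red triangle) the highest HFD library in each but *Dnajb1*.

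Of the HSP70 partners that act on client release, *Hsph1* and *Bag3* were both higher in HFD on average. *Hsph1*, the HSP110 protein, had signals of 498, 509 and 646 in ND and 652, 785 and 810 in HFD. The diets did not overlap, but ND replicate 3 and HFD replicate 1 lay close together. Its log2 difference was 0.45 (SE 0.12, 95% interval 0.18 to 0.71), with a limma adjusted p of 0.278. Without ND replicate 3 the difference was 0.56 and *Hsph1* passed the threshold (limma adjusted p 0.0333), as the only member to do so, or 1.45% of the members against a background of 1.76% of all genes. Over its alternatives the limma adjusted p ranged from 0.00919 to 0.882.

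*Bag3*, a BAG protein induced by HSF1 that links HSP70 to autophagy, had signals of 1352, 1333 and 1782 in ND and 1571, 1889 and 1961 in HFD. The diets overlapped through ND replicate 3 (log2 difference 0.29, SE 0.12, limma adjusted p 0.448). Without that library the difference was 0.42, with a limma adjusted p of 0.0636. *Bag6*, which guards newly made membrane proteins, was nearly level, at 3885, 3790 and 3915 in ND and 3975, 4060 and 3931 in HFD. Its diets did not overlap, yet its log2 difference was only 0.046 (95% interval -0.076 to 0.17). *Bag1*, *Bag2*, *Bag4* and *Bag5* had differences between -0.049 and 0.098, with overlapping diets.

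The HSP70 genes themselves covered a wide range of levels. Per kilobase of merged exons *Hspa8*, the constitutive cytosolic HSP70, was the most abundant member, with a mean signal of 3989 per kb over the 6 libraries. *Hsp90ab1* (3792 per kb), *Hspa5* (3301 per kb) and *Hsp90b1* (3168 per kb) followed, and the next gene, *Hsp90aa1*, was at 875 per kb. The stress-inducible *Hspa1a* (15.6 per kb) ranked last of the 64 members that are not pseudogenes or copies, and *Hspa1b* (25.6 per kb) was among the lowest 5. *Hspa1a* and *Hspa1b* signals together amounted to 0.617% ± 0.110 of the *Hspa8* signal in ND and 0.768% ± 0.0694 in HFD (mean ± SD, n = 3 per diet). These 2 genes share 1524 windows of 75 bases with each other, so their separate values depend on how shared reads were assigned and are uncertain. In all, 61.7% of the 75-base windows of *Hspa1a* and 55.8% of those of *Hspa1b* also occur in other annotated genes. Their ranks per kb and their sum are therefore uncertain as well.

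*Hspa1a* signals were 37.8, 44.2 and 38.6 in ND and 51.4, 44.0 and 62.5 in HFD, a log2 difference of 0.37 (95% interval -0.10 to 0.84), or 0.24 without HFD replicate 3. *Hspa1b* was at 58.5, 63.9 and 76.9 in ND and 69.4, 74.3 and 87.8 in HFD (log2 difference 0.22, 95% interval -0.18 to 0.61). Both pairs of groups overlapped, and *Hspa1b* ran from 0.12 without HFD replicate 3 to 0.32 without ND replicate 3. *Hspa8* had signals of 18834, 17749 and 15808 in ND and 16203, 16596 and 17760 in HFD, overlapping (log2 difference -0.049, limma adjusted p 0.872). Of its 75-base windows 33.0% also occur in other annotated genes. *Hspa4*, an HSP110-class gene like *Hsph1*, had a difference of 0.099 and *Hspa2* one of -0.14, neither past the threshold.

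Both cytosolic HSP90 genes had positive differences with overlapping diets. The inducible *Hsp90aa1* was at 3016, 3032 and 3605 in ND and 3126, 3588 and 4262 in HFD (log2 difference 0.18, 95% interval -0.074 to 0.43). The constitutive *Hsp90ab1* was at 10786, 10099 and 11626 in ND and 10838, 12178 and 12709 in HFD (0.14, 95% interval -0.046 to 0.32). The latter difference was 0.068 after quantile normalization, 0.085 without ND replicate 2 and 0.087 without HFD replicate 3. The signal of *Hsp90aa1* was 29.7% ± 1.56 of that of *Hsp90ab1* in ND and 30.6% ± 2.55 in HFD (mean ± SD, n = 3 per diet). Without HFD replicate 3 the difference of *Hsp90aa1* was 0.063, without HFD replicate 1 it was 0.29 and without ND replicate 3 it was 0.26. Of its 75-base windows 42.8% also occur in other annotated genes, against 0.537% for *Hsp90ab1*, so its level, per-kb rank and ratio are uncertain.

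Among the remaining cytosolic genes, *Hspb6*, a small heat shock protein that binds unfolded clients without ATP, had the most negative difference. Its signals were 64.9, 68.4 and 64.9 in ND and 60.7, 40.5 and 53.6 in HFD, without overlap (log2 difference -0.37, 95% interval -0.81 to 0.070, limma adjusted p 0.557). It was -0.21 without HFD replicate 2, -0.49 without HFD replicate 1 and -0.54 with array weights. *Dnajb13*, a DNAJB gene of ciliated and sperm cells, was at 97.5, 105 and 95.7 in ND and 141, 125 and 106 in HFD, also without overlap (0.31, limma adjusted p 0.492). Of its exonic sequence 11.2% overlaps *Ucp2* on the opposite strand, and how the counting used strand is not given in the sources used here. *Dnaja1*, a DNAJA partner of HSP70, had a difference of -0.033 with overlapping diets, between -0.065 and -0.0072 as single libraries were left out.

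The transcription factors showed no difference beyond the spread between libraries. *Hsf1*, the master regulator of the heat shock response, was at 481, 451 and 534 in ND and 476, 480 and 442 in HFD (log2 difference -0.066, 95% interval -0.26 to 0.13; -0.12 without ND replicate 2 and -0.00018 without ND replicate 3). *Hsf2* was at 571, 483 and 542 in ND and 533, 542 and 508 in HFD (-0.0083, 95% interval -0.20 to 0.18), and leaving out ND replicate 1, ND replicate 3 or HFD replicate 3 turned its sign.

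Most ER genes were nearly level between the diets. *Hspa5*, the ER HSP70 known as BiP, was at 13948, 12896 and 15176 in ND and 13781, 13782 and 14174 in HFD. The HFD values lay within the ND range (log2 difference -0.0067, 95% interval -0.17 to 0.16), and without ND replicate 3 the difference was 0.053, against -0.078 after quantile normalization. *Hsp90b1*, the ER HSP90 known as GRP94, was at 12031, 12467 and 12872 in ND and 12664, 12739 and 13858 in HFD, overlapping (0.071, 95% interval -0.076 to 0.22). Its difference was 0.0063 after quantile normalization, 0.029 without HFD replicate 3 and 0.046 without ND replicate 1. *Dnajc3*, which also inhibits the kinase PERK, had a difference of 0.056 (95% interval -0.075 to 0.19), or 0.032 without ND replicate 2. These 3 are the members whose promoters hold the ER stress element. *Dnajb9* and *Dnajb11*, both luminal partners of BiP, had differences of -0.0082 (95% interval -0.18 to 0.17) and 0.0013 (-0.15 to 0.15). Their signs turned when single libraries were left out, and that of *Dnajb11* also with another scaling.

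*Hspa13*, an HSP70-like protein of the ER, was the exception in its group. Its signals were 847, 850 and 893 in ND and 933, 952 and 981 in HFD, so the diets did not overlap. The difference was small, at 0.15 on the log2 scale (SE 0.064, 95% interval 0.0022 to 0.29), with a limma adjusted p of 0.464 that ranged from 0.0909 to 0.956 over its alternatives. *Dnajc10*, a J protein with disulfide reductase activity, had the lowest difference of the group at -0.060 (95% interval -0.21 to 0.085), or -0.017 without HFD replicate 3 and -0.11 without HFD replicate 1.

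In the mitochondrion *Dnaja3*, the matrix J protein that works with mitochondrial HSP70, had the largest difference. Its signals were 524, 493 and 647 in ND and 618, 686 and 697 in HFD, overlapping through ND replicate 3 (log2 difference 0.27, SE 0.11, limma adjusted p 0.411). Without that library the difference was 0.39, with a limma adjusted p of 0.0604. *Hspa9*, mitochondrial HSP70, was at 3255, 3215 and 3812 in ND and 3558, 3722 and 4092 in HFD (0.15, 95% interval -0.039 to 0.33). *Hspd1*, the HSP60 gene, was at 1378, 1391 and 1713 in ND and 1421, 1607 and 1838 in HFD (0.12, 95% interval -0.13 to 0.37). Without ND replicate 3 the difference was 0.23 for *Hspa9* and 0.22 for *Hspd1*, and without HFD replicate 3 it was 0.091 for *Hspa9* and 0.024 for *Hspd1*. Of the 75-base windows of *Hspd1* 31.0% also occur in other annotated genes. In each of these genes ND replicate 3 was above HFD replicate 1.

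*Hspe1*, which shares its promoter region with *Hspd1*, was at 456, 493 and 519 in ND and 445, 520 and 548 in HFD (log2 difference 0.039, 95% interval -0.18 to 0.26). *Dnajc19* and *Dnajc15*, both linked to protein import at the inner membrane, had no overlap between diets. *Dnajc19* was at 324, 315 and 291 in ND and 331, 345 and 376 in HFD (0.18, limma adjusted p 0.542). *Dnajc15* was at 566, 563 and 549 in ND and 578, 589 and 614 in HFD (0.085, limma adjusted p 0.714). *Dnajc30* had the lowest difference of the group (-0.032, 95% interval -0.27 to 0.21).

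**Figure D3:**
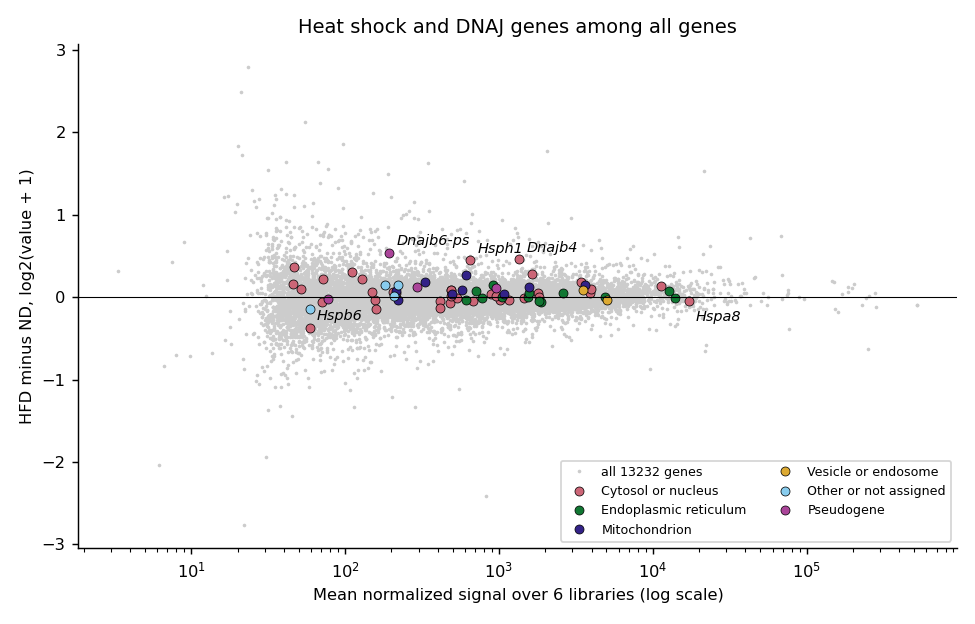
Diet difference (vertical, HFD minus ND on the log2(signal + 1) scale) against mean signal over 6 libraries (horizontal, log scale) for all 13232 genes in grey and 68 members in colour by compartment. The members drawn lie within the cloud of all genes, which spans -2.77 to 2.80, between -0.37 for *Hspb6* and 0.54 for *Dnajb6-ps*.

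On vesicles, *Dnajc5*, the cysteine string protein, had a difference of 0.085 (95% interval -0.054 to 0.22), or 0.046 without HFD replicate 2. *Dnajc13*, an endosomal J protein, had one of -0.032 (95% interval -0.21 to 0.15). Of the members with no assigned compartment *Dnajc27* had signals of 166, 167 and 183 in ND and 193, 187 and 192 in HFD, without overlap (0.15, limma adjusted p 0.658). *Hspb11* had the lowest difference of these, at -0.15 (95% interval -0.55 to 0.26), or -0.24 without HFD replicate 3 and -0.063 without HFD replicate 1.

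The largest positive difference of the members belonged to a pseudogene and not to its parent gene. *Dnajb6-ps* is a processed pseudogene that shares 76.2% of its 75-base windows with *Dnajb6*. Its signals were 183, 155 and 135 in ND and 242, 211 and 232 in HFD, without overlap (log2 difference 0.54, SE 0.13, limma adjusted p 0.260). *Dnajb6*, a DNAJB protein that restrains aggregation, had means of 1815 ± 48.7 for ND and 1820 ± 51.8 for HFD (mean ± SD, n = 3 per diet). The pseudogene was thus listed at 8.72% ± 1.58 of its parent in ND and 12.6% ± 0.805 in HFD.

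A further 3 copies had ratios to their parents that overlapped between the diets. *Hspd1-ps3* signal was 60.0% to 64.2% of that of *Hspd1* in the ND libraries and 60.1% to 62.5% in the HFD libraries, and 46.4% of its 75-base windows also occur in *Hspd1*. *Hspa9-ps1* was at 7.98% to 8.50% of *Hspa9* in ND and 7.82% to 8.28% in HFD. *Dnajc19-ps* was at 21.9% to 29.6% of *Dnajc19* in ND and 17.8% to 24.0% in HFD. *Dnajc19-ps* shares 52.3% of its 75-base windows with *Dnajc19*, and *Hspa9-ps1* only 0.538% with *Hspa9*. The values of *Dnajb6-ps*, *Hspd1-ps3* and *Dnajc19-ps* depend on how the authors' counting placed shared reads and are uncertain. That of *Hspa9-ps1* rests less on such reads.

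**Figure D4:**
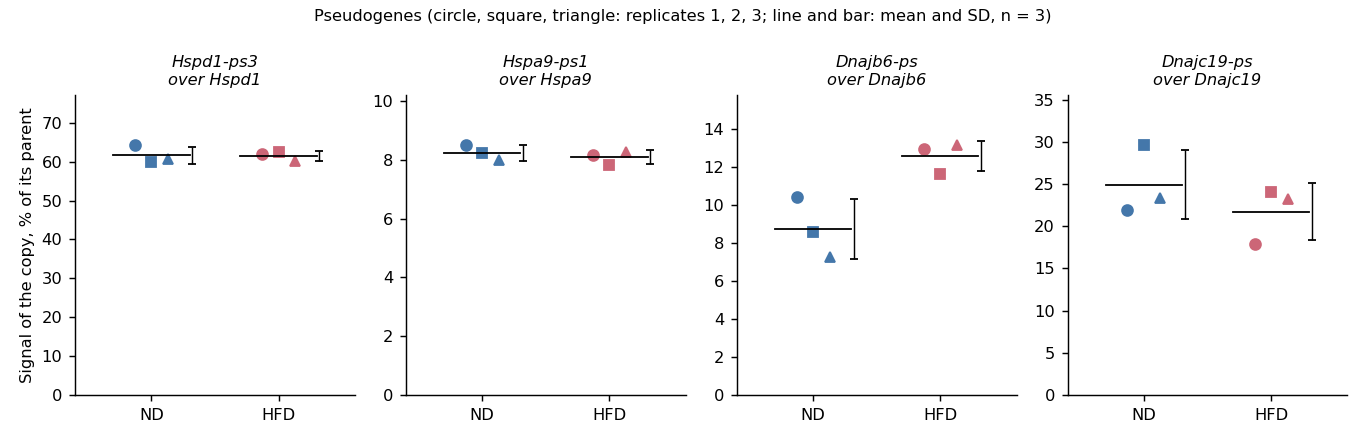
Signal of 4 pseudogenes as a percentage of the parent gene in each library, with the mean and SD of 3 libraries per diet. The ratio to *Hspd1* and *Hspa9* is nearly the same in the 6 libraries, while the diets do not overlap for *Dnajb6-ps*, which is higher in HFD.

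A group of members shared an order of the libraries. ND replicates 1 and 2 were the lowest and HFD replicate 3 the highest library in 14 of the 69 members (20.3%), against 5.31% of all genes. These 14 include *Dnajb4*, *Hsph1*, *Bag3*, *Hsp90aa1*, *Hsp90ab1*, *Hspa1b*, *Dnaja3*, *Hspa9*, *Hspd1*, *Hsp90b1* and *Hspa13*. Of the 8 members with every HFD value above every ND value only *Hsph1* and *Hspa13* had this order. The order was looked for after the values had been seen and is a description of these 6 libraries. HFD replicate 3 was the highest HFD library in 40 members (58.0%) against 37.8% of all genes. It was also the deepest library, while ND replicate 3, the highest ND library for many of these genes, was the shallowest. The part of depth was not tested.

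**Figure D5:**
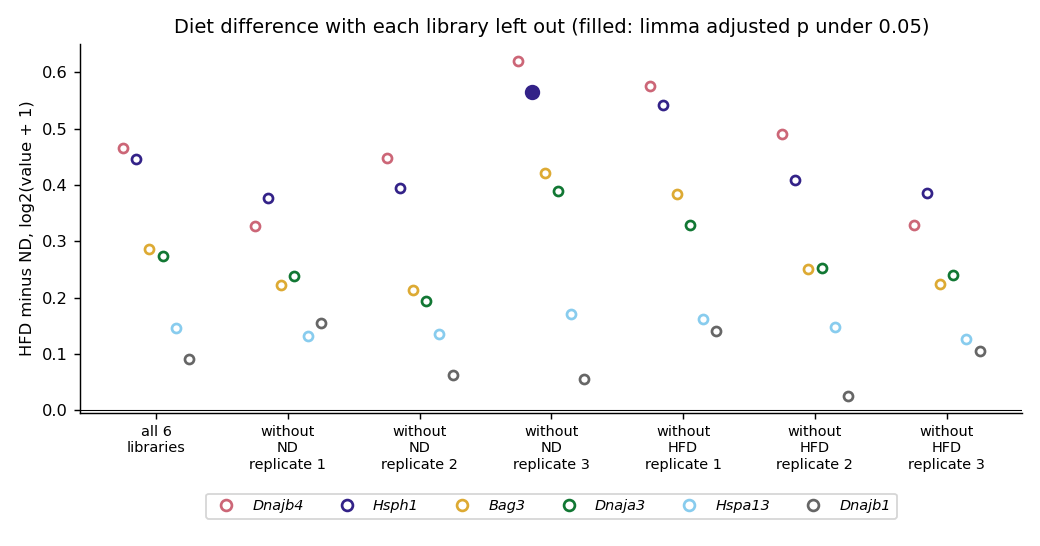
Diet difference (HFD minus ND, log2(signal + 1) scale) of 6 members with all libraries and with each library left out. Filled points have a limma adjusted p under 0.05, which *Hsph1* without ND replicate 3 reaches. *Dnajb4*, *Hsph1*, *Bag3* and *Dnaja3* are largest without ND replicate 3, and *Dnajb1* stays between 0.026 and 0.16.

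Partners of the same system outside the 69 genes were taken from 5 lists of textbook chaperones and cochaperones. Of 90 listed genes 87 had values, with a median log2 difference of 0.021, and 55 had a positive difference. No gene passed the adjusted threshold. At an unadjusted p under 0.05 there were 3 (3.45%), where 10.6% of all genes did so. *Ero1l*, the oxidase that supplies disulfide bonds in the ER, was at 1249, 1325 and 1365 in ND and 1548, 1646 and 1734 in HFD, without overlap (0.32, SE 0.069, limma adjusted p 0.196). It passed in 1 of its 15 alternatives, over which the limma adjusted p ranged from 0.00854 to 0.860. *Ubqln1*, a ubiquilin that binds clients of HSP70, was at 2564, 2655 and 2672 in ND and 2730, 2930 and 3187 in HFD (0.16, limma adjusted p 0.447; 0.10 without HFD replicate 3). The other was *Ptges3*, the HSP90 cochaperone p23, with overlapping diets (0.21, limma adjusted p 0.396), named after its values were seen.

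By list, HSP90 cochaperones had a median log2 difference of 0.0065 (24 of 24 with values), HSP70 partners 0.031 (14 of 15), the cytosolic chaperonin and prefoldin 0.046 (16 of 16), ER folding genes 0.031 (22 of 23) and mitochondrial folding genes 0.040 (11 of 12). Of these medians only that of the ER folding genes kept its sign whichever library was left out (0.010 to 0.058). The lowest and highest were -0.026 and 0.039 for the HSP90 cochaperones, -0.00022 and 0.056 for the HSP70 partners, -0.0028 and 0.079 for chaperonin and prefoldin, and -0.013 and 0.079 for mitochondrial folding genes. Genes often listed as HSF1 targets, other than the members, had a median of 0.052 (17 of 19 with values), or 0.029 without ND replicate 2 and 0.083 without HFD replicate 1. Of these 17 genes *Hmox1*, *P4ha1* and *Ptges3*, or 17.6%, were at an unadjusted p under 0.05, against 10.6% of all genes. *Hmox1*, heme oxygenase, was at 9717, 11339 and 14256 in ND and 16188, 18687 and 18203 in HFD, without overlap (0.60, SE 0.13, limma adjusted p 0.189). *Hmox1* passed in 2 of its 15 alternatives, among them the fit without ND replicate 3 (0.75, limma adjusted p 0.0127). *P4ha1*, a collagen prolyl hydroxylase, was at 1657, 1705 and 1960 in ND and 1979, 2100 and 2290 in HFD (0.26, limma adjusted p 0.321). It passed in 1 of its 15 alternatives, over which the limma adjusted p ranged from 0.0202 to 0.932. Immediate early genes, which also answer stress, had 8 of 21 at an unadjusted p under 0.05, 4 in each direction, or 38.1% against 10.6% of all genes.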

How the data were processed

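RNA from the 6 hypoxia libraries was depleted of ribosomal RNA (100 ng input) and sequenced as single reads of 75 bases, per the labels' protocols. The deposited values are a normalized signal per gene. From the values, the authors divided estimated counts by a size factor per library. STAR, Partek and mm10 are named in the submitters' processing notes, with no role. The annotation, counting rule, strand setting and filter are not given in the sources used here.

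Between 56.6% and 57.6% of values from 5 to 300 were whole multiples of 1 step per library (within 0.02), against 3.66% to 4.00% at other steps, so depth was estimated, but too few values were whole for a count test. NC in a column name was read as normal diet, since the labels hold 1 diet besides HFD. The table's 13232 genes have means of at least 3.36 (median 462), and no column was left unmatched.

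Each gene's log2(signal + 1) was tested for a difference of diet, with 3 libraries a side, by limma 3.58.1 under R 4.3.3 (mean-variance trend, two-sided, Benjamini-Hochberg over all genes, threshold 0.05), with no filter. The pseudocount of 1 understates changes of low genes. SE and 95% intervals are limma's moderated ones. On simulated data of 13232 genes, changes of 0.5, 1 and 2 in log2 were called for 74.6%, 98.3% and 100% of altered genes, with 9.80 unchanged genes called on average. Each simulated gene had the typical spread for its level, and no simulated library stood apart. These shares may therefore overstate what can be called in the real libraries.

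Members followed the name rule; the values of 1 of them are not reported here. Members, compartments, lists and the rule for named genes were chosen with earlier results of these data known. The rule names the main chaperones of each compartment, members with no overlap of diets or an unadjusted p under 0.05, the extremes of each compartment, and up to 3 such partners per list. Gene models and 75-base windows came from GENCODE M21 (68 of 69 members matched, 1 through a RefSeq synonym). Levels per kb use merged exons of all isoforms. PCR copies were not told apart by molecular identifiers, so depth covers counting error only.

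Alternatives were pseudocounts of 0.1 and 10, a mean of 100 or more, 10 or more in each library, column-total scaling, quantile normalization, no trend, array weights, a replicate block and leaving out each library.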

Additional observations from a re-analysis of the deposited data

How the results depend on the processing

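No member passed an adjusted p of 0.05 with all 6 libraries, and this also held for both pseudocounts, both filters, both scalings and limma without the trend. The members that passed with array weights numbered 5, among them *Bag3*, *Dnaja3*, *Dnajb4* and *Hsph1*, or 7.25% against 8.56% of all genes (1133), and those at an unadjusted p under 0.05 then numbered 15 in place of 7 (21.7% of the members against 27.6% of all genes). *Dnajb4* was then 0.55 with a limma adjusted p of 0.0193, and the weights ran from 0.441 (ND replicate 3) to 3.09 (HFD replicate 2). The replicate block gave 31 genes of the table and 1 member, *Dnajb4* (0.47, limma adjusted p 0.0477). Same-numbered libraries had residual correlations of 0.0891, -0.112 and 0.0273. Such values show no pairing by number but cannot exclude it. Leaving out a library gave 0 to 233 genes of the table (the most without ND replicate 3), 0 to 1 member past the threshold and 3 to 12 members at an unadjusted p under 0.05: 12 without ND replicate 3, 3 without ND replicate 1, and 4 each without ND replicate 2, HFD replicate 2 or HFD replicate 3. The share of all genes moved as well, between 5.29% and 17.5% in the same fits. In the same fits *Dnajb4* ran from 0.33 to 0.62, the ER median (0.0010) from -0.0064 to 0.032 and the HSP70 partner median (0.031) from -0.00022 to 0.056. The cause of these changes was not tested.

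Of 580 values for 39 named genes 548 stayed on their side of the threshold with the same sign, 11 newly passed and 21 turned sign, all in 8 genes whose differences were near 0. Without 1 library *Hsf2* ran from -0.076 to 0.044, *Hspa8* from -0.12 to 0.0077, *Hspa5* from -0.065 to 0.053, *Dnajb9* from -0.079 to 0.036, *Dnajb11* from -0.039 to 0.046, *Hspe1* from -0.024 to 0.13, *Dnajc30* from -0.076 to 0.054 and *Dnajc13* from -0.12 to 0.025. Quantile normalization gave 3.9e-05 for *Hsf2* and -0.0032 for *Dnajb11*, scaling to the column total -0.011 for *Dnajb11*, and array weights 0.0023 for *Hspa5*. In simulation with 3 libraries per diet, 74.6% of genes altered by 0.5 in log2 were called, and smaller differences were not simulated. No simulated library stood apart as ND replicate 3 does, so this share may be too high for the real libraries.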
